A study of Mus musculus with 40 samples.

Results

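Oxidative phosphorylation is the work of 5 protein complexes of the inner mitochondrial membrane, whose subunits are encoded in part by the mitochondrial genome and in part by the nucleus. The transcripts described here are those of 92 of the 55536 genes counted in mouse lung: 10 protein-coding genes of the mitochondrial chromosome (symbols beginning mt-) and 82 nuclear genes. They were chosen by symbol (mt-Nd, mt-Co, mt-Atp and mt-Cytb, Nduf followed by a, b, c, s or v and a digit, Sdha to Sdhd, Uqcr, Cox4 to Cox8, and Atp5), without pseudogenes, and by a mean of at least 1 CPM (counts scaled to a common library size) over the 20 libraries of at least 1 of the study's 2 injury models. The minimum was met by 90 of them with bleomycin libraries and by 91 with those of Ad-TGF-β1. Complexes were assigned by symbol alone, so Ndufa4 and Ndufa4l2 stand under complex I throughout, whatever complex their proteins join. There were 6 mitochondrial and 37 nuclear genes of complex I (NADH dehydrogenase) and 4 nuclear genes of complex II (succinate dehydrogenase). Complex III (cytochrome bc1) had 1 and 8, complex IV (cytochrome c oxidase) 3 and 16, and complex V (ATP synthase) 17 nuclear genes. The rule used the level of a gene and no difference between groups.

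The 40 libraries were made from left lungs of C57BL/6 mice of both sexes, whose ages are not given in the sources used here, 5 libraries in each of 8 groups. Bleomycin, a DNA-damaging drug that injures the lung epithelium and is followed by fibrosis, was instilled once through the oropharynx at 1.5 U/kg, and its controls received saline by that route. An adenovirus carrying mouse TGF-β1 behind the CMV promoter, here Ad-TGF-β1, was given through the nose, and its controls received the empty vector, so that all groups of that model had received vector. From day 10 each of the 4 kinds of lung was exposed daily by gavage to vehicle or to saracatinib, a Src-family kinase inhibitor, at 20 mg/kg, and all lungs were harvested on day 28 (18 days of treatment). By the labels the 5 libraries of a group are replicates, with no more said. P-values rest on the spread among replicates within groups, pooled over all groups of a fit. The question was how saracatinib changes the transcriptome of the fibrotic lung in the 2 models; here it is put to the respiratory chain alone.

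In the inner membrane, complexes I to IV pass electrons from NADH and succinate to oxygen and pump protons, and complex V uses the returning protons to make ATP. The mitochondrial genome is transcribed inside the organelle as long precursors that are then processed into individual messengers, while nuclear subunits are transcribed in the nucleus, translated in the cytosol and imported, so that the 2 sets of messengers have separate controls of synthesis and decay. Ciliated cells and alveolar type 2 cells are among the lung cells rich in mitochondria. Because whole lungs were sequenced, fewer cells of a type and less RNA per cell cannot be told apart.

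The libraries held 8812233 to 17336972 counts, scaling factors lay between 0.949 and 1.04, and the mitochondrial chromosome took 0.679% to 2.54% of the counts. All 92 genes passed the low-count filter of the tests reported here, each fitted with every group of a model or of both. Markers of alveolar type 2 cells, which define lung, summed to 6741 to 13900 CPM over the libraries, and a list of cardiac and striated muscle genes also reached 7798 CPM in 1 empty vector library. The first empty vector library with vehicle stood apart from its group in several measures.

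Levels must first be read against the copies of mitochondrial DNA that sit in the nuclear genome. Of the 100-base stretches of the mitochondrial genes, 99.5% for mt-Co2, 99.9% for mt-Co3 and 97.6% for mt-Nd3 were also found in an annotated nuclear pseudogene, against 60.8% for mt-Nd4, 30.8% for mt-Co1, 3.19% for mt-Nd2 and 0% for mt-Nd1, mt-Nd5, mt-Nd6 and mt-Cytb. The 3 sequences that follow are shown because they mark this difference: stretches of mt-Co2 (chrM:7113-7212, plus strand) and mt-Nd3 (chrM:9559-9658, plus strand) that occur with 0 mismatches in Gm28661 (chr1:24615366-24615465, minus strand) and Gm28438 (chr1:24612920-24613019, minus strand), and a stretch of mt-Nd2 (chrM:4814-4913, plus strand) that differs at 2 bases, in capitals, from Gm13339 (chr2:22590062-22590161, minus strand). Sequences come from the GENCODE M21 transcripts on GRCm38.
mt-Co2 and Gm28661: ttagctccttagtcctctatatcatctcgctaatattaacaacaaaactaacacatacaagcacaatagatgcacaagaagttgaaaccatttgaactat
mt-Nd3 and Gm28438: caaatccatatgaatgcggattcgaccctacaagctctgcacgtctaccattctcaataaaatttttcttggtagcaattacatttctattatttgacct
mt-Nd2: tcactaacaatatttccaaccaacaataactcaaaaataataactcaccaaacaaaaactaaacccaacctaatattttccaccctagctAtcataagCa
Gm13339: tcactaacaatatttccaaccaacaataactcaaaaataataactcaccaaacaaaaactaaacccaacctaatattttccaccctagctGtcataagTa

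The genes with a near-complete nuclear copy had few counts. Raw counts per library were 3 to 26 for mt-Co2, 4 to 27 for mt-Co3 and 15 to 190 for mt-Nd3, whereas mt-Co1, with fewer copied stretches, had 29780 to 80590. The pseudogenes themselves had at most 28 counts in any library. The means of mt-Co2 (1.005 CPM with the bleomycin model's libraries and 0.984 with those of Ad-TGF-β1) and mt-Co3 (1.075 and 1.052) lay beside the minimum of 1 CPM, which mt-Co2 met with the bleomycin model's libraries alone. Outside it were mt-Atp6 (0.609 and 0.689 CPM, 99.5% copied), mt-Nd4l (0.417 and 0.396, 98.5% copied) and, far below, mt-Atp8 (0.0737 and 0.115). For mt-Atp8, a short gene, no stretch was found in an annotated nuclear transcript. Nuclear sequence outside annotated transcripts was not searched, so an unannotated copy of it would have been missed. Neither the counting of reads that fit several places nor the strand setting is known here, so the values of mt-Co2, mt-Co3, mt-Nd3 and, in part, mt-Nd4 are uncertain, and mt-Nd6, on the strand opposite to the others, is uncertain as well.

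**Figure D1:**
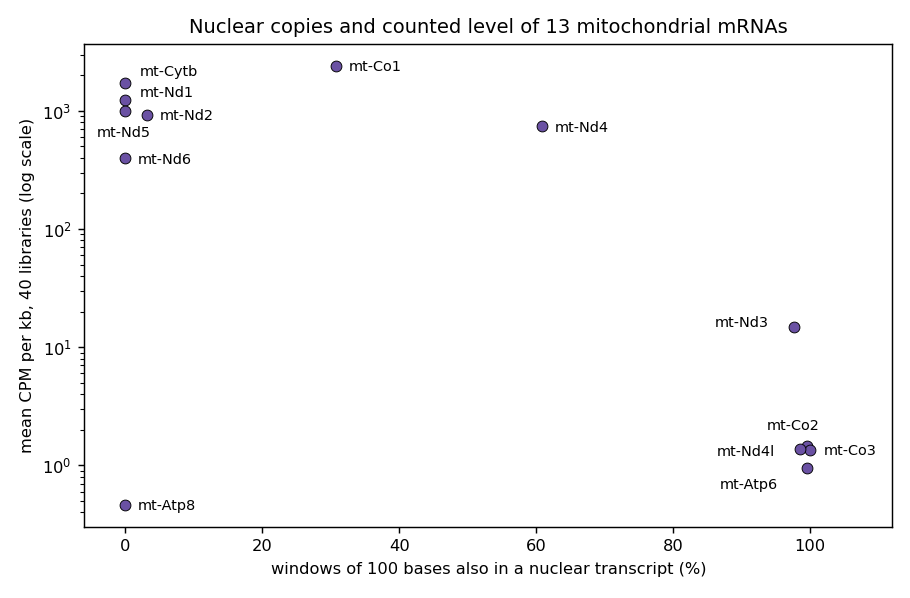
Mean CPM per kilobase over the 40 libraries, on a log axis, against the percentage of a gene's 100-base stretches that occur in an annotated nuclear transcript, 1 point for each of the 13 mitochondrial protein-coding genes. The 5 genes at 97.6% or more lie below 20 CPM per kb. Those at 30.8% (mt-Co1) and 60.8% (mt-Nd4) lie at the height of most genes at 0%, and mt-Atp8 is low at 0%.

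Per kilobase of exon, counting all annotated exons of a gene, most mitochondrial members were far more abundant than the nuclear ones. The exceptions were mt-Nd3, mt-Co2 and mt-Co3, with 11.9, 1.469 and 1.371 CPM per kb in the bleomycin model, below the nuclear median. In the bleomycin model mt-Co1, the catalytic subunit of complex IV (chrM:5328-6872), had 2533 CPM per kb and mt-Cytb, the core of complex III (chrM:14145-15288), 1825 CPM per kb, while the 82 nuclear genes had a median of 16.6 and reached 79.6 CPM per kb for Atp5a1, the alpha subunit of ATP synthase. The most abundant member of each complex by mean CPM was mt-Nd5 (1853 CPM for bleomycin libraries and 1755 for those of Ad-TGF-β1) in complex I, Sdha (146 and 172) in complex II, mt-Cytb (2087 and 1852) and Uqcrc1 (70.6 in both) in complex III, and mt-Co1 (3914 and 3508) and Cox4i1 (77.3 and 99.5) in complex IV. In complex V Atp5a1 and Atp5b, the catalytic beta subunit, were level at 249.6 and 249.3 CPM in the bleomycin model.

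Summed over genes, the transcripts of the mitochondrial genome were lower in injured than in control lungs. The 10 mitochondrial genes summed to 13870 ± 2920 CPM (SD, n = 5, as in all following sums) in saline lungs with vehicle and 15080 ± 5910 with saracatinib. They summed to 7959 ± 1070 in bleomycin lungs with vehicle and 8298 ± 446 with saracatinib. In the adenovirus model the sums were 13030 ± 3120 in empty vector lungs with vehicle, 11400 ± 882 with saracatinib, 7844 ± 730 in Ad-TGF-β1 lungs with vehicle and 9399 ± 1110 with saracatinib. Both kinds of injured lung were low. With vehicle the sums of bleomycin lungs (7212 to 9833) and saline lungs (10550 to 18150) did not overlap, and those of Ad-TGF-β1 lungs (6739 to 8596) and empty vector lungs (8149 to 15920) overlapped.

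The 82 nuclear genes followed another order. Their sum was 2772 ± 192 CPM in saline lungs with vehicle, 2904 ± 211 with saracatinib, 3291 ± 193 in bleomycin lungs with vehicle and 2839 ± 203 with saracatinib. In the adenovirus model the 4 sums lay within 1 SD of each other, at 3360 ± 221 and 3407 ± 366 in empty vector lungs and 3410 ± 159 and 3405 ± 146 in Ad-TGF-β1 lungs, with vehicle and saracatinib in that order. Bleomycin lungs with vehicle held 3162, 3318, 3540, 3391 and 3046 CPM, saline lungs with vehicle 3060, 2680, 2758, 2541 and 2819, and bleomycin lungs with saracatinib 2882, 2797, 2521, 3068 and 2926. The ranges of bleomycin lungs with vehicle and of saline lungs overlapped by 1 library each.

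The ratio of the mitochondrial to the nuclear sum was highest in saline lungs, at 5.28 ± 2.35 with saracatinib and 5.03 ± 1.09 with vehicle. It was 3.92 ± 1.08 in empty vector lungs with vehicle, 3.37 ± 0.336 with saracatinib, 2.93 ± 0.262 in bleomycin lungs with saracatinib, 2.77 ± 0.444 in Ad-TGF-β1 lungs with saracatinib, 2.44 ± 0.458 in bleomycin lungs with vehicle and 2.30 ± 0.231 in Ad-TGF-β1 lungs with vehicle. Neighbours in that order differed by less than the larger of their SDs, except saline and empty vector lungs with vehicle and, with ranges that overlapped, empty vector and bleomycin lungs with saracatinib. In saline lungs with saracatinib the mean rested on the fifth library, at 9.27, the other four being 4.23, 3.60, 5.54 and 3.79.

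**Figure D2:**
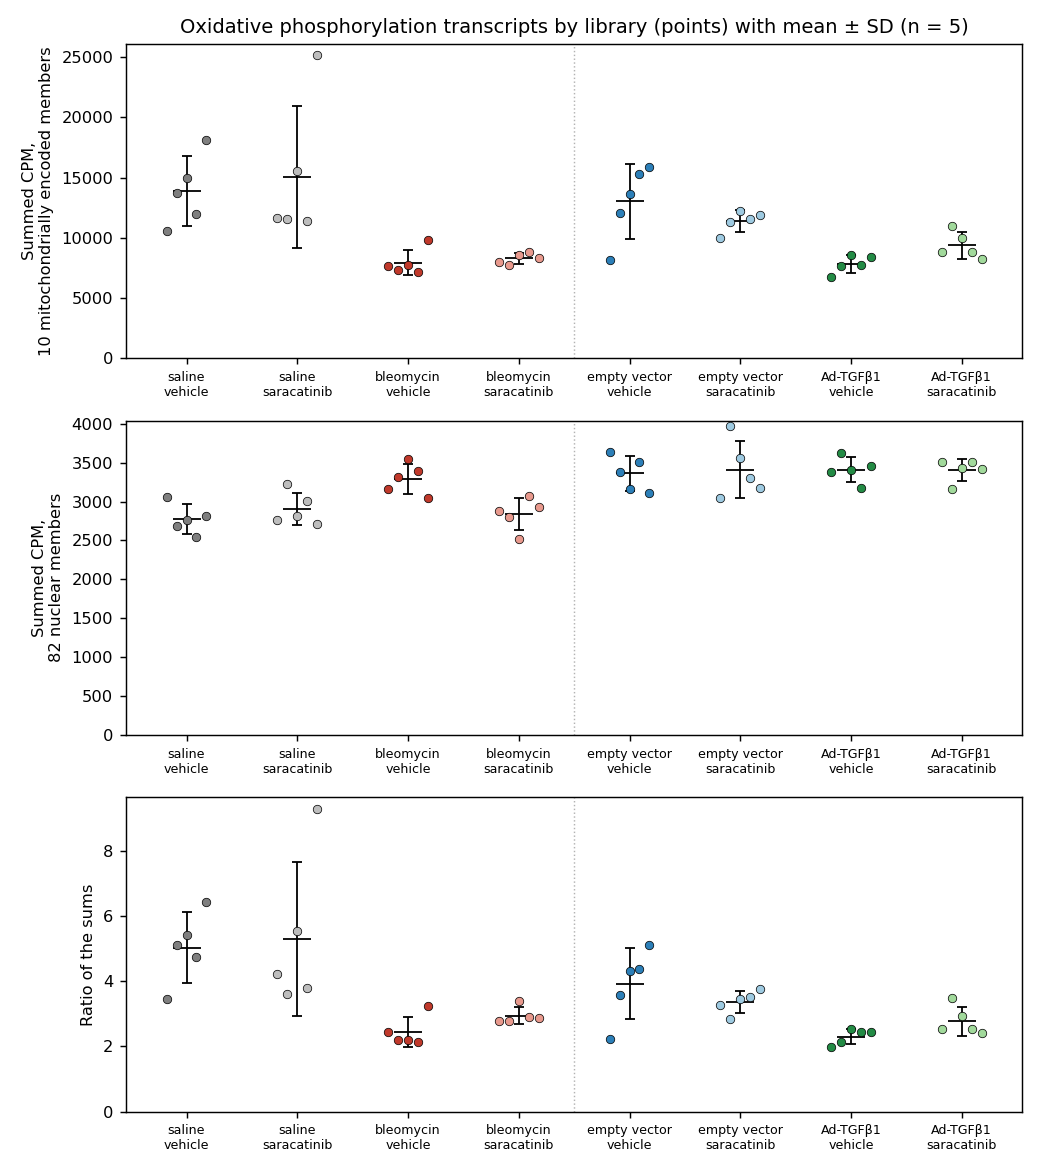
Summed CPM of the 10 mitochondrial genes, of the 82 nuclear genes, and their ratio, 1 point per library in the 8 groups with the group mean and SD. The mitochondrial sum is low in the 4 injured groups, and the nuclear sum is high in bleomycin lungs with vehicle relative to saline lungs and about level over the 4 adenovirus groups.

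Bleomycin lungs had lower mitochondrial and higher nuclear transcript levels of the chain than saline lungs, both with vehicle. By edgeR's quasi-likelihood test with Benjamini-Hochberg adjustment over all 18846 genes tested, 40.9% of genes changed at an adjusted p under 0.05, the threshold for every call below (20.6% higher, 20.3% lower). Of the 10 mitochondrial genes 0 rose and 9 fell, and of the 82 nuclear genes 43 rose and 5 fell. The median log2 difference was -0.865 over the mitochondrial and 0.238 over the nuclear genes (68 of 82 positive), against -0.0277 over all genes. The groups of 5 did not overlap for 7 mitochondrial and 29 nuclear genes, and for 26.5% of all genes. Without the fifth saline library with vehicle, which had the highest mitochondrial sum of its group, the 9 calls and their direction held and the median was -0.739.

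Among the mitochondrial genes mt-Cytb had 1930, 2488, 2750, 2177 and 3568 CPM in saline lungs and 1354, 1281, 1344, 1284 and 1784 in bleomycin lungs. All saline libraries were above all bleomycin libraries, a log2 difference of -0.87 ± 0.200 (SE, n = 5 and 5, edgeR adjusted p = 0.00186). For mt-Nd2, a complex I core subunit, the saline libraries held 964.7, 1340, 1467, 1111 and 1474 CPM and the bleomycin libraries 602.0, 583.2, 538.7, 528.4 and 655.1, again without overlap (-1.13 ± 0.162, edgeR adjusted p = 2.51e-05). The complex I genes mt-Nd4, mt-Nd5 and mt-Nd1 fell by 0.94, 0.86 and 0.71 on the log2 scale. In mt-Co1 (-0.66 ± 0.189, edgeR adjusted p = 0.00853) and mt-Nd6 (-0.55 ± 0.159, edgeR adjusted p = 0.00912) the groups overlapped, mt-Co1 running from 3566 to 6137 CPM in saline lungs and from 2529 to 3679 in bleomycin lungs.

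The greatest mitochondrial difference was that of mt-Nd3, one of the genes with a near-complete nuclear copy. It had 7.15, 8.26, 7.94, 5.50 and 6.69 CPM in saline lungs and 1.23, 1.31, 1.54, 1.32 and 1.53 in bleomycin lungs, where counts were few (-2.35 ± 0.275, edgeR adjusted p = 3.19e-06). Of the other 2 such genes mt-Co3 fell by 1.14 on the log2 scale, and mt-Co2 did not pass (-0.53 ± 0.349, edgeR adjusted p = 0.235).

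On the nuclear side the increase reached every complex and was small. It was called for 14 of 37 complex I genes (2 fell), 2 of 4 of complex II, 5 of 8 of complex III, 7 of 16 of complex IV (2 fell) and 15 of 17 of complex V (1 fell), and 45 of the 48 calls were under 1.5-fold. Cox5a, a structural subunit of complex IV, showed the highest rise: 21.8, 17.9, 18.3, 16.3 and 19.1 CPM in saline lungs against 28.0, 31.3, 36.0, 32.8 and 29.5 in bleomycin lungs, with no overlap (0.75 ± 0.103, edgeR adjusted p = 1.66e-05). Sdhd, a membrane anchor of complex II, followed with 26.4, 20.9, 25.0, 18.6 and 27.6 CPM against 29.7, 37.0, 39.1, 37.5 and 32.4 (0.57 ± 0.0992, edgeR adjusted p = 0.000174), also without overlap. Next came 2 stalk subunits of complex V, Atp5f1 (0.53 ± 0.102, edgeR adjusted p = 0.000455) and Atp5o (0.52 ± 0.104, edgeR adjusted p = 0.000662), and Uqcrq of complex III (0.50 ± 0.104, edgeR adjusted p = 0.000821).

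Complex V had the highest share of calls, with a median log2 difference of 0.359 against 0.198 in complex I. Its catalytic subunit Atp5b (chr10:128083273-128090391) had 253.4, 216.9, 219.3, 202.5 and 231.6 CPM in saline lungs and 275.9, 308.1, 331.9, 301.7 and 268.0 in bleomycin lungs, without overlap (0.40 ± 0.0802, edgeR adjusted p = 0.000585). The complex V gene that fell was Atp5s, a regulatory factor of the synthase (-0.33 ± 0.119, edgeR adjusted p = 0.0298).

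The other nuclear genes that fell were Ndufs7, an iron-sulfur core subunit of complex I (-0.27 ± 0.0706, edgeR adjusted p = 0.00541), and 3 tissue- or oxygen-dependent isoforms. Cox4i2 was the less abundant form of COX4 in these lungs, with a mean of 23.67 CPM against 77.34 for Cox4i1 in the bleomycin model. It had 37.4, 21.3, 31.8, 26.6 and 27.6 CPM in saline lungs and 20.7, 17.5, 18.0, 16.7 and 16.4 in bleomycin lungs (-0.70 ± 0.192, edgeR adjusted p = 0.00673). The lowest saline library was above the highest bleomycin one. Ndufa4l2, a hypoxia-induced relative of Ndufa4, fell by 0.45 on the log2 scale (SE 0.176, edgeR adjusted p = 0.0444), with groups that overlapped, and this call was lost in 11 of 17 alternatives (edgeR adjusted p up to 0.118). Cox8b, a heart and muscle form, was near the limit of counting and met the minimum level through the adenovirus libraries alone, with 1.27, 0.899, 1.39, 0.621 and 1.25 CPM in saline lungs and 0.327, 0.171, 0, 0.177 and 0.139 in bleomycin lungs (-2.69 ± 0.626, edgeR adjusted p = 0.00214). Cardiac and striated muscle markers fell in the same comparison (11 of 19 lower, 1 higher, median -1.17), with sums of 160.2 to 371.4 CPM in bleomycin and 399 to 937.4 in saline lungs, and their part in it was not tested.

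**Figure D3:**
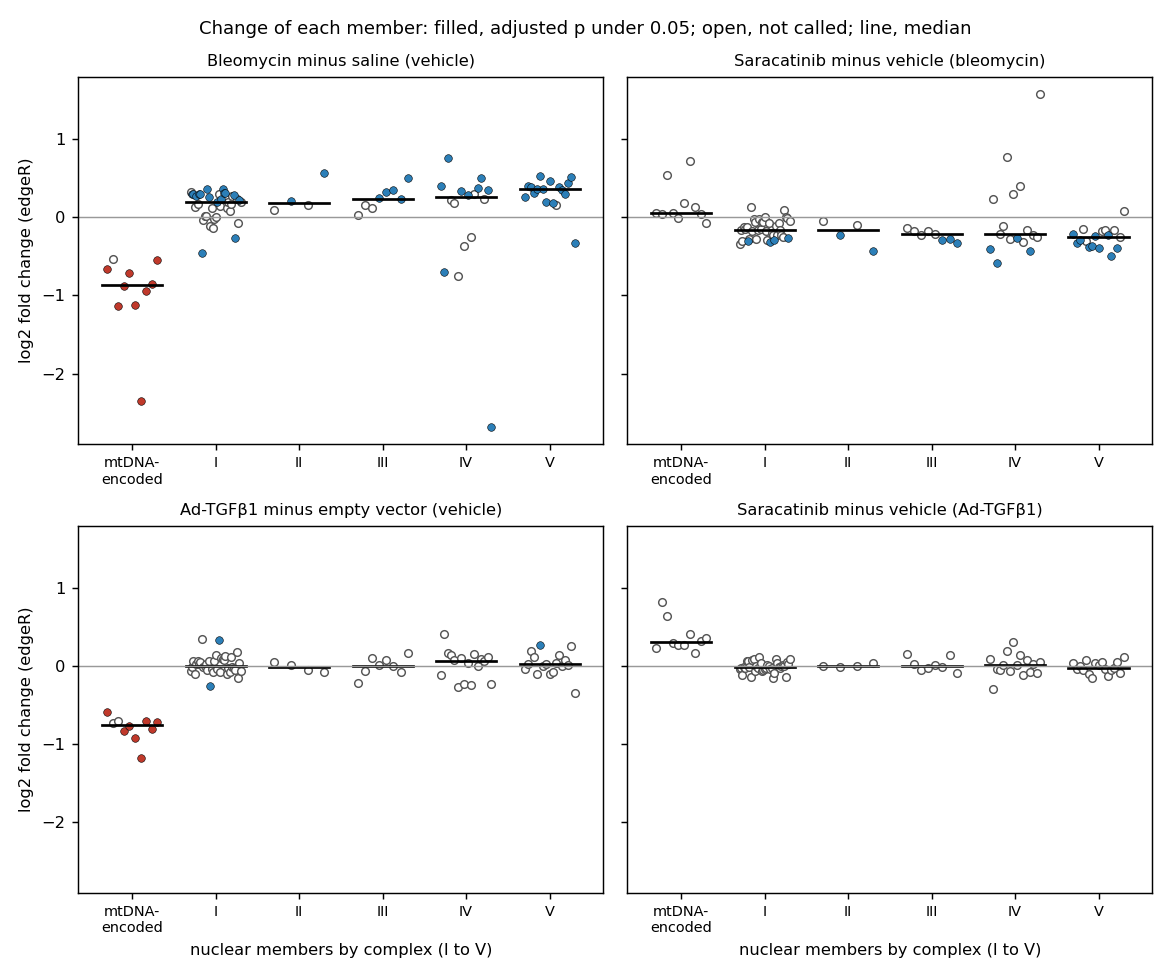
Fitted log2 difference of every member, 1 point per gene, by genome and complex, in 4 comparisons. After bleomycin the mitochondrial points lie below 0 and most nuclear points above it; with saracatinib in bleomycin lungs 72 of 82 nuclear points lie below 0; in Ad-TGF-β1 lungs the mitochondrial points lie below 0 and the nuclear points about 0.

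Markers of several cell types moved with these differences. In bleomycin against saline lungs, 16 of 17 ciliated-cell markers fell (median log2 difference -1.04), their summed level running from 1159 to 2770 CPM in saline lungs and from 592.5 to 1335 in bleomycin lungs. Of 16 macrophage markers 14 rose (median 1.78), from sums of 460.3 to 709.9 CPM to sums of 1793 to 3202, and 11 of 12 genes of cycling cells rose (median 1.78). Over the 20 libraries of the bleomycin model the mitochondrial sum had a Pearson r of 0.915 and a Spearman rho of 0.908 with the ciliated sum, and r was 0.817 after each group's mean was subtracted and 0.903 without the 2 libraries farthest from the median. Other sums are given as r over all libraries, after the same centring, and without 2 libraries. These were -0.861, -0.643 and -0.862 for macrophages and 0.747, 0.367 and 0.793 for cardiac and striated muscle. For alveolar type 2 cells they were -0.645, -0.537 and -0.338, and for alveolar type 1 cells -0.861, -0.922 and -0.687. For capillary endothelium they were -0.0104, -0.849 and -0.0679. These are descriptions of libraries that share group and depth, and the part of cell composition in the differences was not tested.

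**Figure D4:**
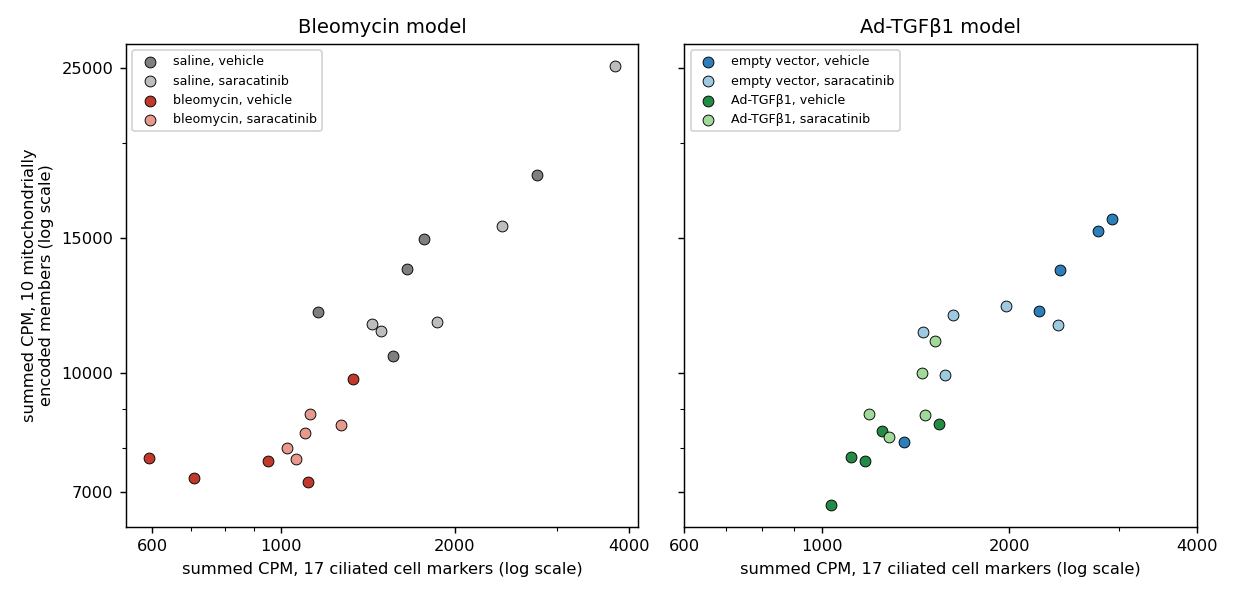
Summed CPM of the 10 mitochondrial genes against summed CPM of the ciliated-cell markers, both on log axes, 1 point per library, a panel per model with n = 20. Libraries with a high ciliated sum have a high mitochondrial sum in both panels, with r of 0.915 in the bleomycin panel and 0.925 in the Ad-TGF-β1 panel.

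Nuclear subunit messengers were lower with saracatinib in bleomycin lungs, and no mitochondrial one passed the test. Compared with vehicle, 14% of all genes changed in these lungs (5.31% higher, 8.71% lower), and 23 of 82 nuclear members fell and 0 rose. The median log2 difference of the nuclear members was -0.206, with 72 negative, against 0.00961 over all genes, and the groups did not overlap for 14 of them (9.95% of all genes). The calls comprised 10 of 17 genes of complex V, 4 of 37 of complex I, 2 of 4 of complex II, 3 of 8 of complex III and 4 of 16 of complex IV. Of the mitochondrial genes 0 of 10 were called by edgeR, DESeq2 or limma voom, 1 was under an unadjusted p of 0.05 by each tool, and their median was 0.0545.

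Cox5a again led, at 24.6, 19.9, 17.6, 23.2 and 19.7 CPM with saracatinib, every library being below the 28.0 to 36.0 CPM of vehicle (-0.59 ± 0.102, edgeR adjusted p = 0.00228). Sdhd had 25.8, 24.3, 23.6, 28.3 and 27.8 CPM with saracatinib, also all below the vehicle range of 29.7 to 39.1 (-0.44 ± 0.0985, edgeR adjusted p = 0.00731). Cox4i1, the ubiquitous form of COX4 (chr8:120668222-120674207), had 91.4, 88.0, 105.7, 92.7 and 83.2 CPM with vehicle and 71.7, 64.9, 63.6, 77.5 and 71.4 with saracatinib, without overlap (-0.40 ± 0.0894, edgeR adjusted p = 0.00704). The 5 with the greatest fall were completed by Atp5k, a small membrane subunit of complex V (-0.49 ± 0.126, edgeR adjusted p = 0.015), and Cox7b of complex IV (-0.43 ± 0.0947, edgeR adjusted p = 0.00663).

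The count of 23 rested on several libraries. It was 13 without replicate 2 and 10 without replicate 3 of bleomycin with vehicle, and 10, 8 and 15 without replicates 2, 3 and 5 of bleomycin with saracatinib. Calls over all genes fell in the same fits, from 2643 to 1690 and 1339, and to 1326, 1470 and 1850. Macrophage markers (9 of 16 fell, median -0.81) and genes of cycling cells (12 of 12 fell, median -1.53) fell in the same comparison, with macrophage sums of 843.4 to 1524 CPM with saracatinib, while 1 of 17 ciliated markers rose. Their part in the result was not tested. This comparison and that of bleomycin with saline share the bleomycin lungs with vehicle, so their opposite signs are not independent.

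In saline lungs saracatinib called 0 of 92 members and 1 gene in all (0.00531% of 18846) by edgeR, 0 members by DESeq2 and 0 by limma voom. At an unadjusted p of 0.05 edgeR found 0 mitochondrial and 2 nuclear members, DESeq2 0 and 3 and limma voom 1 and 7. The groups overlapped for all 92 members (they did not for 1.41% of genes), and the nuclear median was 0.0741. The mitochondrial median was 0.113, and -0.116 without the fifth saline library with saracatinib. Sdhd had 27.7, 28.2, 26.9, 25.7 and 26.3 CPM with saracatinib, within or just above the range of vehicle.

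The test of the difference itself, saracatinib's effect in bleomycin lungs less its effect in saline lungs, called 1.06% of genes (0.61% higher, 0.446% lower) and 4 of 82 nuclear members, all lower. They were Cox5a (-0.66 ± 0.147, edgeR adjusted p = 0.0368), Sdhd (-0.62 ± 0.140, edgeR adjusted p = 0.0396), Cox4i1 (-0.55 ± 0.127, edgeR adjusted p = 0.0431) and Atp5g3, a gene for the proton-carrying ring of ATP synthase (-0.51 ± 0.122, edgeR adjusted p = 0.048). The nuclear median was -0.273, with 73 of 82 negative and 43 under an unadjusted p of 0.05, and DESeq2 called 11 and limma voom 8. Over all 18846 genes DESeq2 called 838 and limma voom 415, against 199 by edgeR. The 4 calls were near the threshold: none remained when any 1 of 13 libraries was left out (replicates 2, 3 and 4 of saline with vehicle, 1, 2, 3 and 5 of saline with saracatinib, 2, 3 and 4 of bleomycin with vehicle and 2, 3 and 5 of bleomycin with saracatinib), and 1 remained without replicate 5 of saline with vehicle. In these fits 35 to 136 genes were called in all, against 199 with every library. Of the mitochondrial genes 0 were called with every library by edgeR, DESeq2 or limma voom, with 1, 1 and 2 under an unadjusted p of 0.05.

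**Figure D5:**
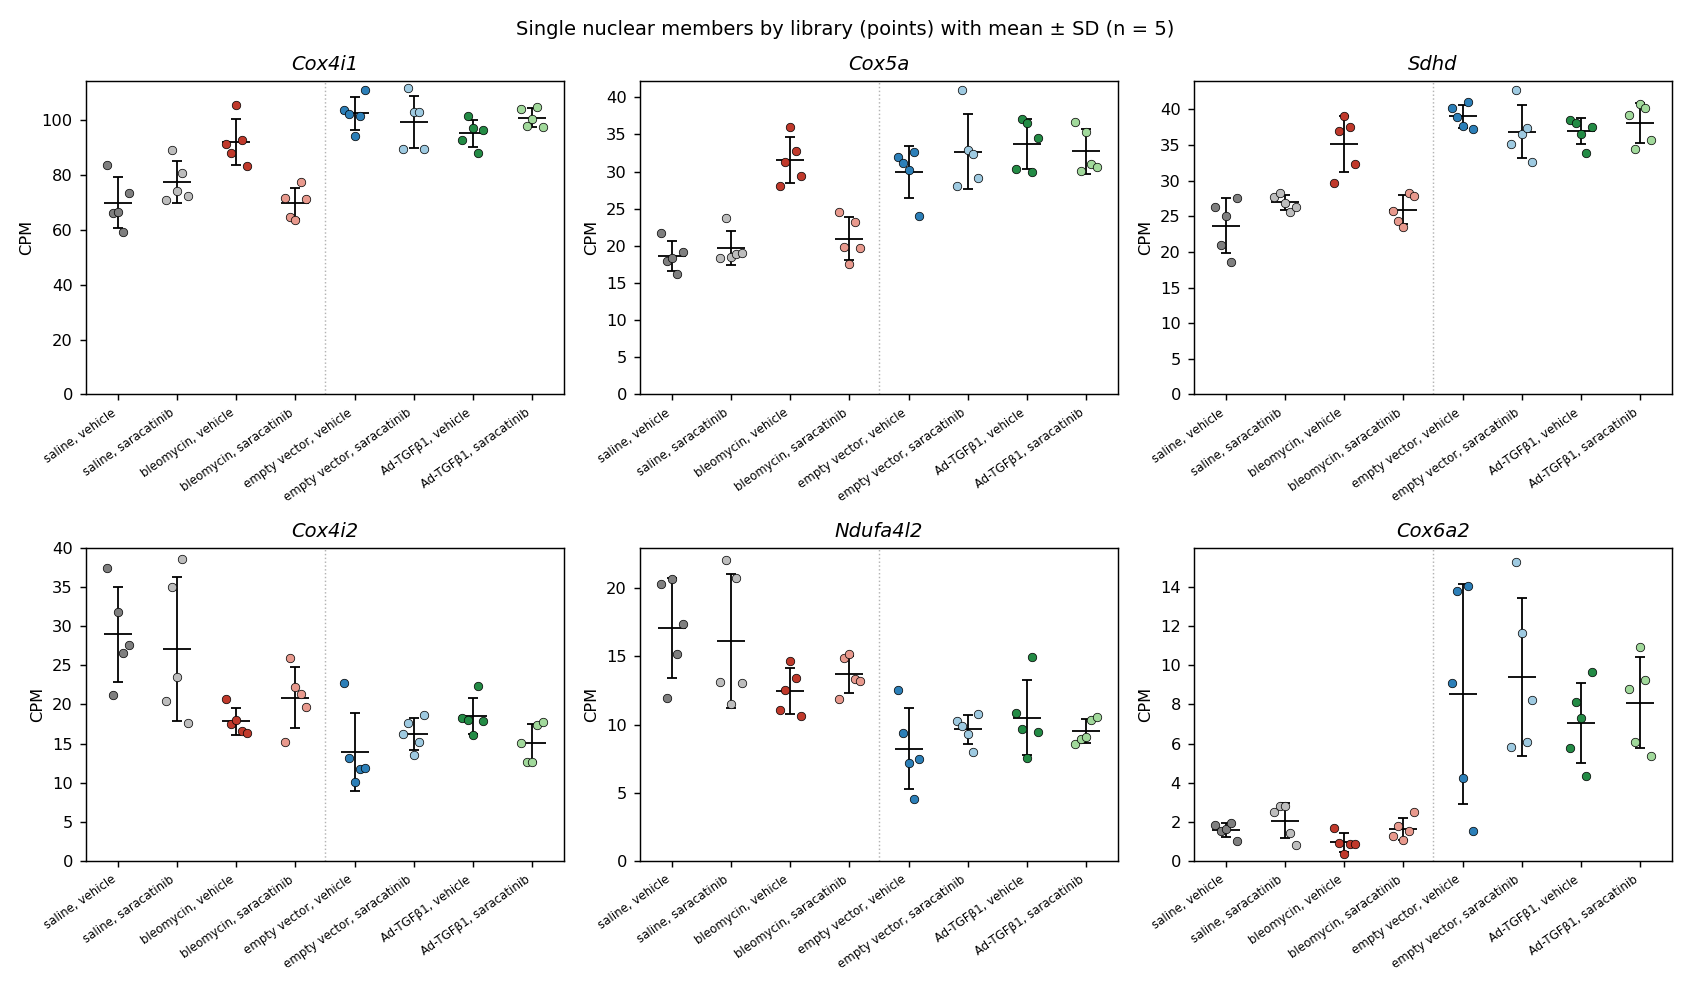
CPM of Cox4i1, Cox5a, Sdhd, Cox4i2, Ndufa4l2 and Cox6a2 in each library of the 8 groups, with the group mean and SD (n = 5), a panel per gene. Cox5a and Sdhd are higher in bleomycin lungs with vehicle than in saline lungs or in bleomycin lungs with saracatinib, Cox4i2 and Ndufa4l2 are highest in saline lungs, and Cox6a2 is higher and more scattered in the adenovirus groups.

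In Ad-TGF-β1 lungs the mitochondrial messengers fell as well, while the nuclear ones showed little change. Against empty vector lungs with vehicle, 25.8% of 18834 genes changed (11.5% higher, 14.3% lower). Of the 10 mitochondrial genes 0 rose and 8 fell, with a median log2 difference of -0.75, and of the 82 nuclear genes 2 rose and 1 fell, with a median of 0.0196, against -0.0128 over all genes. The groups did not overlap for 1 mitochondrial and 2 nuclear members (8.82% of all genes). Without the first empty vector library with vehicle 9 mitochondrial genes fell, with a median of -0.877. In that fit 7127 of all 19000 genes tested were called, against 4865 with every library.

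The first empty vector library was the lowest of its group in each of the 7 abundant mitochondrial genes. For mt-Cytb the empty vector libraries held 1441, 2103, 2496, 2949 and 2966 CPM and the Ad-TGF-β1 libraries 1127, 1329, 1528, 1285 and 1464, so that only that library lay inside the injured range (-0.83 ± 0.152, edgeR adjusted p = 0.00114). For mt-Co1 they held 2804, 4072, 4297, 4821 and 4994 CPM against 2399, 2766, 2950, 2948 and 2883 (-0.59 ± 0.126, edgeR adjusted p = 0.0026), with the same library inside. The complex I genes mt-Nd2, mt-Nd5, mt-Nd1, mt-Nd6 and mt-Nd4 fell by 0.92, 0.80, 0.77, 0.71 and 0.70 on the log2 scale.

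The mitochondrial gene without overlap was mt-Nd3, at 5.37, 10.4, 6.01, 7.99 and 12.4 CPM with the empty vector and 3.42, 2.54, 4.18, 3.66 and 4.67 with Ad-TGF-β1 (-1.18 ± 0.274, edgeR adjusted p = 0.00446). The pair with the fewest counts, mt-Co2 (-0.73, edgeR adjusted p = 0.0637) and mt-Co3 (-0.70, edgeR adjusted p = 0.143), did not pass. The 3 nuclear calls were accessory subunits of complex I, Ndufb6 (0.33 ± 0.0954, edgeR adjusted p = 0.0163) and Ndufb10 (-0.25 ± 0.0874, edgeR adjusted p = 0.0412), and Atp5f1 (0.27 ± 0.0828, edgeR adjusted p = 0.0229). Their number was 1 without the first or the second Ad-TGF-β1 library with vehicle, 8 without the first and 0 without the fifth empty vector library with vehicle. Calls over all genes in these fits were 3540, 3748, 7127 and 3314, in that order, against 4865 with every library.

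All 17 ciliated markers fell in this comparison too (median -1.13), with sums of 1353 to 2927 CPM in empty vector and 1034 to 1543 in Ad-TGF-β1 lungs. The lowest empty vector sum was that of the first library, as in the mitochondrial sum, 8149 against 12060 to 15920 CPM in the other four. Macrophage markers rose (13 of 16, median 0.817), as did alveolar type 2 markers (11 of 12, median 0.618). Over the 20 libraries the mitochondrial sum had r = 0.925 and rho = 0.913 with the ciliated sum, 0.836 after centring on group means and 0.877 without the 2 farthest libraries. With the alveolar type 2 sum r was -0.923, and -0.833 after centring. The part of cell composition was not tested.

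Saracatinib called no member in the adenovirus model. In Ad-TGF-β1 lungs 17 of 18834 genes changed (0.0903%, of which 0.0478% higher and 0.0425% lower), and 0 of 92 members were called by edgeR, DESeq2 or limma voom, with 3, 4 and 8 mitochondrial and 1, 1 and 3 nuclear members under an unadjusted p of 0.05. All 10 mitochondrial genes had positive values, with a median log2 difference of 0.304, and the nuclear median was -0.00445. For mt-Cytb the libraries with saracatinib held 1547, 1963, 1748, 1540 and 1446 CPM and those with vehicle 1127 to 1528, so that 1 library with saracatinib lay inside the vehicle range. The groups overlapped for all 92 members, and did not for 3.07% of genes.

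In empty vector lungs 1 gene changed (0.00531%) and 0 members were called by edgeR, DESeq2 or limma voom, with 0, 0 and 6 mitochondrial and 1, 1 and 2 nuclear members under an unadjusted p of 0.05. The groups overlapped for all 92 members, and did not for 0.637% of genes. The mitochondrial median was -0.172. It was -0.29 without the first empty vector library with vehicle, with 7 of 10 under an unadjusted p of 0.05, and -0.0852 without the fifth. Without the first, Cox4i2 was called (0.49 ± 0.126, edgeR adjusted p = 0.0347), in a fit that called 1112 of all 19000 genes tested.

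The test of the difference between saracatinib's effects in Ad-TGF-β1 and in empty vector lungs called 0% of genes. All 10 mitochondrial genes were positive with a median of 0.502, 6 under an unadjusted p of 0.05 by edgeR, 7 by DESeq2 and 7 by limma voom, which called 1 mitochondrial gene (mt-Nd5) and 1 nuclear gene (Cox4i2) where DESeq2 called 0. The 17 ciliated markers were all positive as well, with a median of 0.709 and none called. Without the first empty vector library with vehicle 7 mitochondrial genes were called higher, among them mt-Cytb (0.66 ± 0.156, edgeR adjusted p = 0.0281) and mt-Nd5 (0.62 ± 0.132, edgeR adjusted p = 0.0213), and Cox4i2 lower (-0.77 ± 0.171, edgeR adjusted p = 0.0237). In that fit 1190 of all 19000 genes tested were called, against 0 of 18834 with every library. Limma voom with every library called 413 genes. By edgeR the calls thus turned on 1 control library, over all genes as well as over members.

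Whether the 2 injuries differed was tested in 1 fit over all 40 libraries, as the effect of bleomycin minus that of Ad-TGF-β1. It called 15.1% of 19529 genes (8.64% higher, 6.47% lower), 1 of 10 mitochondrial genes and 13 of 82 nuclear ones, 11 higher and 2 lower, with a median of -0.0595 over the mitochondrial and 0.226 over the nuclear genes. The higher ones were led by Sdhd (0.65 ± 0.119, edgeR adjusted p = 0.00025), Cox5a (0.59 ± 0.148, edgeR adjusted p = 0.00585), Atp5g3 (0.58 ± 0.123, edgeR adjusted p = 0.00132), Cox4i1 (0.51 ± 0.110, edgeR adjusted p = 0.00146) and Atp5e, the epsilon subunit of ATP synthase (0.46). The lower ones were Cox4i2 (-1.10 ± 0.269, edgeR adjusted p = 0.0049) and Ndufa4l2 (-0.79 ± 0.275, edgeR adjusted p = 0.047), whose call was lost in 14 of 27 alternatives (adjusted p up to 0.122).

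The mitochondrial call was mt-Nd3 (-1.16 ± 0.400, edgeR adjusted p = 0.0434), and it was lost when any 1 of 15 libraries was left out: each bleomycin library, replicates 1, 2 and 3 of saline, 1, 3, 4 and 5 of Ad-TGF-β1 and 1, 3 and 4 of the empty vector, all with vehicle. The nuclear count of 13 was 8 without replicate 2 or 3 of saline and 7 without replicate 4, 7 and 8 without replicates 2 and 4 of bleomycin, 8 without replicate 3 or 4 of Ad-TGF-β1, and 8 and 6 without replicates 3 and 4 of the empty vector. Calls over all genes in the fits that moved the nuclear count were 2245 to 2787, against 2951 with every library.

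The control groups themselves differed. Empty vector against saline lungs, both with vehicle, differed in 26.2% of genes (13.9% higher, 12.3% lower), and route, agent and table of deposit cannot be told apart in it. Of the nuclear members 34 were higher and 2 lower (median 0.187, 75 of 82 positive, 25 without overlap against 12.5% of all genes), and 0 of 10 mitochondrial genes were called by edgeR, DESeq2 or limma voom, with 0 under an unadjusted p of 0.05 by each tool. By complex 12 of 17 in complex V, 10 of 37 in complex I, 3 of 4 in complex II, 3 of 8 in complex III and 6 of 16 in complex IV were higher. The nuclear count of 36 fell to 23 without the fourth empty vector library, and calls over all genes fell from 5123 to 4315.

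Sdhd showed it plainly, with 40.2, 39.0, 37.7, 41.1 and 37.2 CPM in empty vector lungs against 18.6 to 27.6 in saline lungs (0.66 ± 0.0852, edgeR adjusted p = 1.44e-06). Cox5a had 32.0, 31.1, 30.2, 32.6 and 24.0 CPM against 16.3 to 21.8 (0.62 ± 0.107, edgeR adjusted p = 6.35e-05), and Cox7a2l, a factor of supercomplex assembly, was higher by 0.50 ± 0.0599 (edgeR adjusted p = 4.52e-07). Bleomycin lungs with vehicle, for comparison, held 29.7 to 39.1 CPM of Sdhd and 28.0 to 36.0 of Cox5a. Within the adenovirus model neither passed the test of Ad-TGF-β1 against empty vector (-0.08 ± 0.0677 and 0.17 ± 0.104).

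Muscle isoforms were among the members that differed between the control groups. Cox6a2, the heart and skeletal muscle form of COX6A, had 9.09, 13.8, 4.23, 14.1 and 1.53 CPM in empty vector lungs and 1.05 to 1.95 in saline lungs (2.32 ± 0.407, edgeR adjusted p = 7.2e-05), and the fifth empty vector library lay inside the saline range. Cox7a1, the muscle form of COX7A, had 5.29, 6.89, 2.37, 6.58 and 0.408 CPM against 0.444 to 1.12, with the same library low. Cox7a1 and Cox8b met the minimum of 1 CPM through the adenovirus libraries alone (0.859 and 0.644 CPM over those of the bleomycin model), so their values between the control groups are a description, with no test, and Cox7a1 is 1 of the 34 counted above. All 20 cardiac and striated muscle markers were higher as well (median 2.41), with sums of 469.4 to 4592 CPM against 399 to 937.4. Over the 20 libraries of the adenovirus model the summed Cox6a2, Cox7a1 and Cox8b had r = 0.918 and rho = 0.956 with that list (0.938 centred on group means, 0.908 without the 2 farthest libraries). Over the 20 of the bleomycin model the values were lower, at r = 0.65 and rho = 0.478 (0.329 centred, 0.413 without the 2 farthest). The part of such tissue in the result was not tested.

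The isoform pairs with Cox and Nduf symbols moved unequally. In bleomycin lungs against saline lungs the ubiquitous forms Cox4i1, Cox6b1, Cox7a2l, Cox8a and Ndufa4 rose by 0.40, 0.34, 0.37, 0.35 and 0.29, while Cox6a1 (0.18, edgeR adjusted p = 0.0921) and Cox7a2 (0.30, edgeR adjusted p = 0.0634) did not pass. Their tissue-restricted partners Cox4i2, Cox8b and Ndufa4l2 fell, as above, and Cox6a2 (-0.76, edgeR adjusted p = 0.0911), Cox6b2, a testis form (-0.37, edgeR adjusted p = 0.159), and Cox7a1 (-0.25, edgeR adjusted p = 0.595) did not pass. The difference between partners was not itself tested.

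In Ad-TGF-β1 lungs none of these 13 isoforms was called by edgeR with all libraries. Cox4i2 (0.41, edgeR adjusted p = 0.0912) and Ndufa4l2 (0.34, edgeR adjusted p = 0.214) had positive values there, with Cox4i2 at 18.2, 18.1, 16.1, 22.4 and 17.9 CPM against 22.7, 13.1, 10.2, 11.7 and 11.9 in empty vector lungs, where the first library was again apart. Without that library both were called higher, Cox4i2 by 0.66 (edgeR adjusted p = 0.00044) and Ndufa4l2 by 0.55 (edgeR adjusted p = 0.0234), as were Cox7a2 and Cox8a. Limma voom with all libraries also called Cox4i2 and Ndufa4l2, and so did edgeR without the 2 libraries farthest from their group. Calls over all genes were 7127, 7183 and 5905 in these fits, in that order, against 4865 by edgeR with all libraries. Between the controls both were lower with the empty vector, Cox4i2 by -1.11 ± 0.192 (edgeR adjusted p = 5.8e-05) and Ndufa4l2 by -1.11 ± 0.197 (edgeR adjusted p = 8.26e-05), the latter from 11.9 to 20.7 CPM in saline lungs to 4.55 to 12.6. The pair varied together over libraries, with r = 0.862 and rho = 0.765 in the bleomycin model and 0.774 and 0.883 in the adenovirus model. Capillary endothelial markers, of which 6 of 13 fell after bleomycin and 4 of 13 were lower with the empty vector, had r = 0.782 and 0.855 with Cox4i2 in the 2 models (n = 20 each).

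The promoters of the members were searched for the letters of factors known for respiratory genes and for muscle (MEF2). Of the 82 nuclear members 67 had an entry in the RefSeq promoter table (GRCm38.p6, 250 bases before to 50 after the start of 27025 genes). Both strands were read. GCGCA, any base and GCGC (NRF1) were found in 17 (25.4%) against 5.19% of all genes, CCGGAAG (GABPA) in 16 (23.9%) against 9.93%, AAGATGGCG (YY1) in 7 (10.4%) against 1.64%, AAGGTCA (ESRRA) in 8 (11.9%) against 5.38%, and CTA, any 4 bases and TAG (MEF2) in 1, Cox5b (1.49%), against 4.23%. A match describes letters and shows no binding. The 27025 genes were not limited to those expressed in lung, whereas the members were chosen by their level, so the shares compare unlike sets. Members without an entry, among them Cox6a2, were not searched. The sequences upstream of 3 of the 4 genes in which saracatinib's effect differed between bleomycin and saline lungs are shown. In the 300 bases searched Sdhd holds the NRF1, GABPA and ESRRA letters, Atp5g3 those of NRF1 and ESRRA, and Cox5a none of the 5, and the stretches printed do not hold them all. Capitals mark the GABPA letters of Sdhd (chr9:50603850-50603909, minus strand, the 60 bases next to the start, beyond which lies the first exon of Timm8b) and the ESRRA letters of Atp5g3 (chr2:73911327-73911576, minus strand), both in reverse complement. Cox5a is at chr9:57520982-57521231 on the plus strand. Cox4i1 is named only.
Sdhd: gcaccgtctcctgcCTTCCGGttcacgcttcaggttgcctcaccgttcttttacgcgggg
Atp5g3: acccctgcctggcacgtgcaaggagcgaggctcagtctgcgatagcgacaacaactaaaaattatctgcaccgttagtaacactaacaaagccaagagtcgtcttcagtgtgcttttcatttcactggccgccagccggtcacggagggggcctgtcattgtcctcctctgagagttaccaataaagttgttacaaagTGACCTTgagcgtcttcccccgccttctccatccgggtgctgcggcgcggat
Cox5a: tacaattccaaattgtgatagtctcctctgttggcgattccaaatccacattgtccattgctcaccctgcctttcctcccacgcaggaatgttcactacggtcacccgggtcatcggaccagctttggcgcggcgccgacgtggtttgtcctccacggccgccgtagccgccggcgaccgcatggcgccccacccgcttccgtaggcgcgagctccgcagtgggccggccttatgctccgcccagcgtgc

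Genes of related mitochondrial pathways were taken from lists. After bleomycin, when 20.6% of all genes rose and 20.3% fell, 5 of 17 genes of the tricarboxylic acid cycle rose (29.4%) and 0 fell (Cs, citrate synthase, 0.31; Fh1, fumarase, 0.28; Mdh2 0.25; Dlst 0.17). Of 21 electron carriers and exchangers 10 rose (47.6%) and 2 fell, among them Ucp2 (0.57) and the outer-membrane channel Vdac2 (0.50) upward and Ucp3 (-1.37) downward. Of 48 assembly factors 3 rose (6.25%) and 7 fell (14.6%), both below the shares of all genes, with Sco2, a copper chaperone of complex IV, at -1.16.

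Genes that maintain, transcribe or process the mitochondrial genome were called in shares below those of all genes after bleomycin (20.6% and 20.3%). Of 22 biogenesis and genome maintenance genes 2 rose (9.09%) and 4 fell (18.2%), among them the coactivator Ppargc1b (0.73) and the nuclear receptors Esrra (0.37) and Esrrg (-1.17), and the mitochondrial RNA polymerase Polrmt fell by 0.28. Of 19 RNA processing genes 2 rose (10.5%) and 1 fell (5.26%) (Hsd17b10 0.36, Grsf1 0.22, Fastk -0.28).

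With saracatinib in bleomycin lungs, where 8.71% of all genes fell and 5.31% rose, 3 of the 17 cycle genes fell (17.6%) and 0 rose (Fh1 -0.36, Cs -0.25, Mdh2 -0.23), and 3 of 21 carriers fell (14.3%) and 0 rose, led by Slc25a5, an ADP/ATP exchanger (-0.50), which was also called in the test of the difference between bleomycin and saline lungs (-0.55). In Ad-TGF-β1 lungs, where 14.3% of all genes fell and 11.5% rose, the lists had shares near or below these. There 4 of the biogenesis genes fell (18.2%) and 0 rose (Esrrg -1.01, Ppargc1a, the main coactivator of the family, -0.63, the helicase Twnk -0.33 and Polg2 -0.26), 6 assembly factors fell (12.5%) and 1 rose (Sco2 -1.05, Coa5 0.31), and 2 cycle genes fell (11.8%) and 0 rose (Idh2 -0.41, Suclg2 -0.41). The injuries differed in Ppargc1a (1.20), Ppargc1b (0.94) and Esrra (0.49), all higher in the bleomycin effect.

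Among the genes outside the list whose level followed the sums most closely, those named differed by genome. Over the 20 libraries of the bleomycin model and 10976 genes with a mean of at least 10 CPM, the mitochondrial sum was followed by Enah (r = 0.967), Syn3 (0.952), Atp2c2 (0.95) and Gabre (0.948), and the nuclear sum by Rpl8 (0.962), Hint1 (0.96), Rpl27 (0.951), Rps16 (0.949) and Eif3c (0.946), of which Rpl8, Rpl27 and Rps16 encode ribosomal proteins and Eif3c an initiation factor. In the adenovirus model (11329 genes) the mitochondrial sum was followed by Strbp (0.962), Sox6 (0.96), Med12l (0.96), Dsg2 (0.957) and Itgb4 (0.956), and the nuclear sum by Idh3g (0.916), Mdh1 (0.857), Cfd (0.856) and Car3 (0.85), Idh3g and Mdh1 being enzymes of the tricarboxylic acid cycle or its shuttles and Cfd and Car3 genes abundant in fat. The summed tricarboxylic acid cycle genes had r = 0.915 and 0.89 with the nuclear sum in the 2 models. In the adenovirus model the nuclear sum had r = 0.828 with adipocyte markers and 0.67 with cardiac and striated muscle markers. In the bleomycin model these were -0.416 and -0.415. The part of such tissue in the nuclear sums was not tested. The mitochondrial and the nuclear sums had r = -0.506 and -0.231 with each other, the mitochondrial ribosomal RNAs 0.122 and 0.412 with the mitochondrial sum, and the total count of a library -0.608 and -0.631 with it.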

How the data were processed

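Raw read counts per gene were used as the authors deposited them, in a table per model (20 libraries and 55536 genes each), and 0 columns were left unmapped. Per the submitters' processing notes the tools were STAR 2.6.1d, Picard, featureCounts of Subread 1.6.3 and edgeR, with the builds mm9 and GRCm38, and per the labels' protocols ribosomal RNA was depleted and a stranded kit was used. The role of each build, the strand setting and the treatment of reads with several locations are not given in the sources used here. All identifiers matched GENCODE M21. A second, shorter pair of tables was not used, since its values are the same raw counts.

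Counts were tested with edgeR 4.0.16 in R 4.3.3 (TMM scaling, filterByExpr by group, quasi-likelihood fit with a coefficient per group of a model, or of both models for comparisons between them). Every gene tested entered the Benjamini-Hochberg adjustment, and calls were made under an adjusted p of 0.05. The SE given with an edgeR log2 difference is its absolute value divided by the square root of the test's F statistic. CPM are relative to TMM-scaled totals, and a sum is that of its genes' CPM. Likeness to the members' sums, taken as log2 of the summed CPM, was computed on log2 of CPM + 1 for single genes and marker or pathway sums. Isoforms, and the mitochondrial and nuclear sums against each other, were compared on log2 of CPM + 0.1. A prior count of 2 entered only the distances of libraries from their group. Alternatives were DESeq2 1.42.0, limma 3.58.1 (voom with quality weights), DESeq2 size factors, no count filter, totals over nuclear genes, only the compared groups, and leaving out libraries. On simulated counts for bleomycin against saline (18846 genes) 50% of 1.5-fold and 81% of 2-fold changes were recovered with 4 false calls, and for Ad-TGF-β1 against empty vector (18834 genes) 63% and 87% with 13.

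The members and all lists were chosen with earlier results of these data known. Genes named are the mitochondrial members, up to 5 called nuclear members with the greatest change in each direction, the isoform pairs, the most abundant member of each complex, up to 4 called genes of each pathway list, and the 5 genes most like each sum. Results of 3 of these genes are not reported here. Members with a role in the text beyond these were chosen after their values were seen.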

Additional observations from a re-analysis of the deposited data

Results flagged for a closer look

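In 192 groups of 5 values (24 quantities in 8 groups), 17 held a library whose gap to its nearest neighbour was large for the group's range, where chance gives about 5% of groups. Of these, 10 lay in 2 libraries that were high in mitochondrial transcripts. The fifth bleomycin library with vehicle was high in the mitochondrial sum (9833 CPM), in its ratio to the nuclear sum (3.23), and in mt-Co1 (3679), mt-Cytb (1784), mt-Nd4 (934.9) and mt-Nd5 (1564). The fifth saline library with saracatinib was high in mt-Nd1 (2596 CPM), mt-Nd2 (2028), mt-Nd4 (2625) and mt-Nd5 (4456), and its ciliated-cell markers summed to 3781 CPM, the highest of its group; the part of cell composition was not tested. The others were Cox4i2 in the first empty vector library with vehicle (22.71 CPM), Cox5a in the fifth of that group (23.98) and in the second saline library with saracatinib (23.71), mt-Co1 (3186) and mt-Nd3 (11.86) in the first empty vector library with saracatinib, the ratio in the third bleomycin library with saracatinib (3.39), and the nuclear sum in the second Ad-TGF-β1 library with saracatinib (3155).

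Saracatinib's log2 effect in bleomycin lungs differed from that in saline lungs, by edgeR's interaction test, for Cox5a (-0.66), Sdhd (-0.625), Cox4i1 (-0.55) and Atp5g3 (-0.51). The log2 effect of bleomycin differed from that of Ad-TGF-β1 upward for Sdhd (0.65), Cox5a (0.59), Atp5g3 (0.58), Cox4i1 (0.51), Atp5e (0.46), Ndufa8 (0.41), Atp5b (0.38), Cox7a2l (0.38), Ndufa10 (0.32), Atp5a1 (0.31) and Ndufs1 (0.23). It differed downward for mt-Nd3 (-1.16), Cox4i2 (-1.095) and Ndufa4l2 (-0.79). Ndufa8, Ndufa10 and Ndufs1 are complex I subunits.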

How the results depend on the processing

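Over every alternative run, no called difference changed sign. The counts of mitochondrial genes called lower after bleomycin (9 under each alternative) and after Ad-TGF-β1 (8 to 10), and of nuclear genes called after bleomycin (48, from 34 to 54), stayed within 1.5 times. Without the low-count filter, nuclear calls were 13 for saracatinib in bleomycin lungs, 6 (and 0 mitochondrial) for the difference between injuries and 22 between control groups; where the fit held the compared groups alone, 15 for saracatinib in bleomycin lungs and 23 between control groups. DESeq2 called 11 and limma voom 8 nuclear genes in the bleomycin interaction with saracatinib, and voom called 5 nuclear genes after Ad-TGF-β1 and 1 mitochondrial and 1 nuclear gene in the interaction of that model. Over all genes these fits called 838 and 415 in the bleomycin interaction, 7183 after Ad-TGF-β1 and 413 in that model's interaction. Leaving out per model the 2 libraries that lay farthest from their group, 1 mitochondrial gene was called with saracatinib in bleomycin lungs, 1 nuclear gene in the bleomycin interaction, and 1 of each genome in the Ad-TGF-β1 interaction. Leaving out 1 library at a time, nuclear calls ranged from 8 to 27 for saracatinib in bleomycin lungs, 0 to 5 in its interaction, 0 to 8 after Ad-TGF-β1, 0 to 1 for saracatinib in empty vector lungs, 0 to 1 in the interaction of that model (mitochondrial 0 to 7), 6 to 14 for the difference between injuries (mitochondrial 0 to 1) and 23 to 41 between control groups. Over all genes such calls ranged from 1326 to 2985 for saracatinib in bleomycin lungs and from 35 to 583 in its interaction. Without the first empty vector library with vehicle they were 7127 after Ad-TGF-β1, 1112 for saracatinib in empty vector lungs and 1190 in that model's interaction. The cause of these moves was not tested, beyond fewer samples or more genes tested. Of called members, 40 of 57 after bleomycin, 8 of 11 after Ad-TGF-β1, 20 of 36 between control groups, 6 of 14 for the difference between injuries, 8 of 23 for saracatinib in bleomycin lungs and 0 of 4 in its interaction were called under every alternative. With a minimum of 5 CPM there were 88 members (8 mitochondrial), and with none 98 (13). Other totals moved each summed CPM by less than 1 SD. Of simulated 1.5-fold changes 50% were recovered for bleomycin against saline and 63% for Ad-TGF-β1 against the empty vector. No paired analysis was run, because within a model the numbers in the sample titles are not shared between groups. Between models some numbers recur, in titles of bleomycin libraries with vehicle and of Ad-TGF-β1 libraries with vehicle or saracatinib, with no link named in the labels.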
